A study of Homo sapiens with 18 samples.

Results

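T98G cells, a human glioblastoma line, were treated for 2 h with one of a pair of metabolic inhibitors, and their transcriptomes were compared directly: 2DG, a glucose analogue that blocks glycolysis, against phenformin, a biguanide that blocks respiratory complex I. The samples were chosen by treatment label alone, 3 libraries with 2DG and 3 with phenformin (Phen below), which makes 6 of the 18 libraries of the series. The cells received 2DG at 10 mM by the labels and the methods (the results text of the study names another dose) or Phen at 100 µM. The 3 libraries of the solvent, DMSO, are shown as the common background. All libraries came from this 1 cell line, and A, B and C were labelled as biological replicates. They were polyadenylated, strand-specific RNA libraries, for which the deposited table gives FPKM, a fragment number divided by exon length and by the depth of the library.

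Once inside the cell, 2DG is phosphorylated by hexokinase and goes little further along glycolysis. Because it also resembles mannose, it can enter the lipid-linked sugar chains used for N-glycosylation in the endoplasmic reticulum. Biguanides slow the oxidation of NADH by complex I, and cells then draw more on glycolysis. The transcription factor MondoA, with its partner MLX, responds to glucose 6-phosphate and related sugar phosphates and drives TXNIP and ARRDC4, members of the alpha-arrestins that restrain glucose uptake. The integrated stress response, through the transcription factor ATF4, and the unfolded protein response, through ATF6 and XBP1, are the other programmes that glycolytic and glycosylation stress are known to engage.

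The libraries held 19552946 to 20518204 mapped fragments with 2DG and 18425361 to 20546516 with Phen, and replicate pairs of these groups had a chi-square of 1.32 to 6.04 per degree of freedom over genes, more than sampling noise gives, so none was a copy of another. Of the 12108 genes that reached 0.5 FPKM in at least 3 libraries of the series, 3821 rose and 4272 fell in 2DG against Phen at a Benjamini-Hochberg adjusted p under 0.05 (limma), a background of 31.6% and 35.3%. With the thresholds of the study, which ask for at least a 2-fold change, a Bonferroni p of at most 0.05 and a mean of at least 1 FPKM in the higher group, 31 genes were called higher (0.256%) and 16 called lower (0.132%). These counts depended on the libraries in the model, for a cause that was not tested. Without DMSO C and replicate A of GH (gnetin H) with phenformin, 320 genes were called higher and 14 lower. Leaving out 2DG C, 2DG B, Phen A or Phen B left 9, 11, 10 and 12 genes called lower. Against DMSO, 2992 genes rose (24.7%) and 3670 fell (30.3%) in 2DG, with 32 called higher (0.264%) and 20 called lower (0.165%). In Phen 41 rose (0.339%) and 25 fell (0.206%), of which 1 was called lower (0.00826%). The study applied its thresholds to the test of another tool, so these counts are not those it reports. All 3 2DG libraries lay above the 3 Phen libraries in 35.3% of the tested genes and below them in 40.3%, so a gene whose libraries do not overlap is common here.

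**Figure D1:**
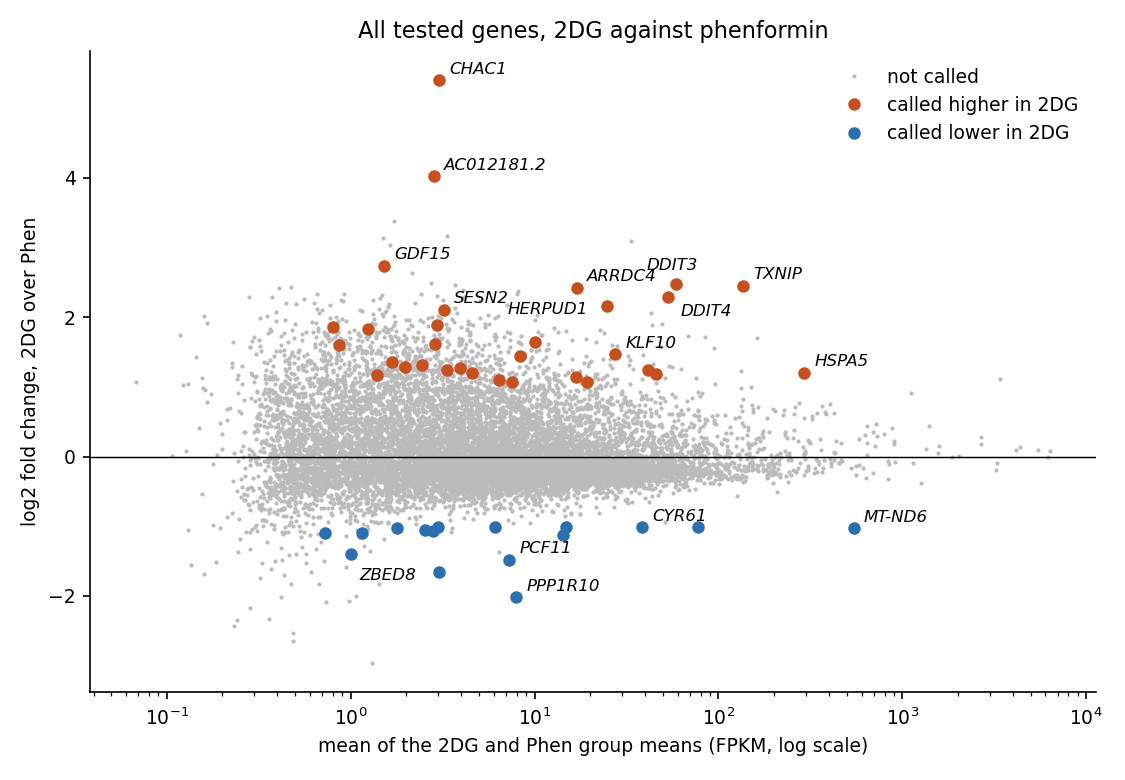
Log2 fold change of 2DG over Phen (vertical axis) against the mean of both group means in FPKM (horizontal axis, log scale) for the 12108 tested genes. Orange points are the 31 genes called higher and blue points the 16 called lower at the thresholds of the study; CHAC1 stands at the top with 5.41 and PPP1R10 has the lowest called value, -2.02.

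The fold changes followed the base composition of the transcripts. Among the 2302 genes with a GC content under 40% the median log2 fold change was -0.29, and 1.91% rose while 70.6% fell. Among the 1082 genes of 60 to 65% GC it was 1.02, and 89.8% rose while 0.739% fell. The slope of a library on GC content was 0.131, 0.289 and 0.274 log2 units per 10 points in the 2DG libraries, against -0.357, -0.268 and -0.209 in the Phen libraries and -0.301, -0.229 and 0.0467 in the DMSO libraries. No 2DG library overlapped the Phen libraries (difference 0.51, exact permutation p = 0.1, two-sided, the smallest that 3 against 3 allows). DMSO A and B lay within the range of the Phen libraries, and only DMSO C, at 0.0467, lay in the gap between both groups. Whether the slope comes from the cells or from the making of the libraries cannot be told apart here. Results of 2DG against Phen are therefore mostly given beside a corrected value, computed after the trend of every library on GC content and transcript length was removed and the library was centred on its median gene. Contrasts against DMSO are as deposited unless stated. The corrected test left 2867 genes that rose (23.8%) and 2715 that fell (22.6%), with 24 called higher (0.2%) and 9 called lower (0.0749%). These shares, and 31.6% and 35.3% as deposited, are the background beside which the counts of every gene list below stand. At a change of at least 2-fold, the numbers were 1082 that rose and 65 that fell as deposited, and 117 and 93 after the correction. A treatment effect that follows GC content would be removed along with the trend. Of the 31 genes called higher, all 31 rose in the corrected test and 18 were still called; of the 16 called lower, all 16 fell and 5 were still called.

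**Figure D2:**
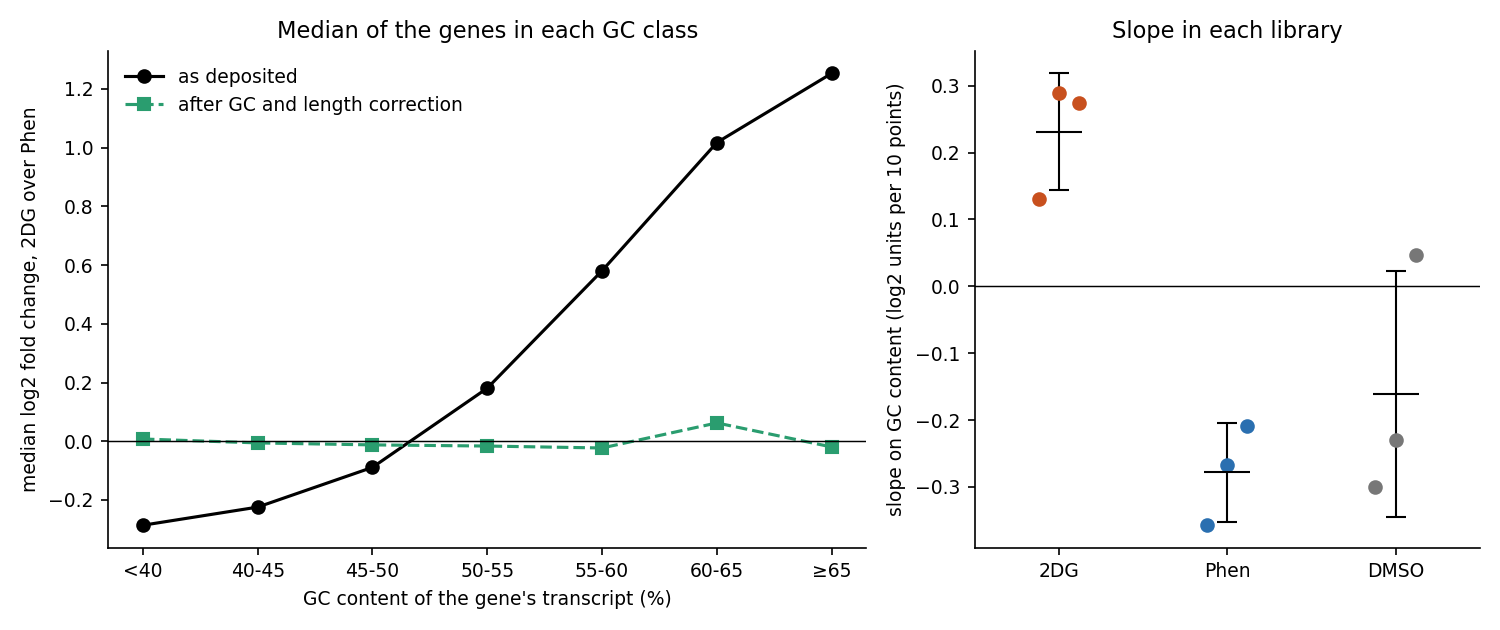
Left, the median log2 fold change of 2DG over Phen (vertical axis) of the genes in 7 classes of transcript GC content (horizontal axis), as deposited (black) and after the correction (green). Right, the slope on GC content in each library (points), with the mean and SD of each group of 3; the 2DG libraries lie above 0 and the Phen libraries below it.

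TXNIP and ARRDC4 rose with 2DG and fell with Phen against the same DMSO libraries, and were therefore among the largest differences between the agents. TXNIP, the thioredoxin-interacting alpha-arrestin, was at 235, 225 and 229 FPKM in the 2DG libraries, against 41.6, 42.2 and 41.5 FPKM in the Phen libraries and 109, 108 and 104 FPKM in the DMSO libraries. The 3 groups did not overlap, with 2DG on top, the solvent in the middle and Phen at the bottom, and the libraries of a group lay close together. The log2 fold change of 2DG over Phen was 2.45 (SE, the standard error, 0.046; adjusted p = 3.7e-14), of which 2DG over DMSO gave 1.10 (adjusted p = 4.7e-10) and Phen over DMSO -1.36 (adjusted p = 2.0e-10). ARRDC4, a close relative, was at 29.3, 28.3 and 28.5 FPKM in 2DG, against 5.40, 5.39 and 5.01 FPKM in Phen and 9.83, 9.19 and 8.59 FPKM in DMSO. Its order was the same, with a log2 fold change of 2.42 (SE 0.067, adjusted p = 3.1e-12) in 2DG over Phen, 1.63 in 2DG over DMSO (adjusted p = 4.7e-10) and -0.79 in Phen over DMSO (adjusted p = 4.3e-05). Their transcripts have a GC content of 43.8% and 43.4%, against a median of 56.9% over the genes called higher, and their corrected values were 2.63 and 2.61.

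Of the 9 alpha-arrestins and MondoA-MLX genes in the list, 7 were tested and all 7 rose in 2DG against Phen, with a median log2 fold change of 0.53 against -0.05 over all tested genes. After the correction 4 rose and 3 did not pass, with a median of 0.44 beside -0.00 over all genes. ARRDC3, an arrestin that binds beta-adrenergic receptors, was at 25.2, 23.1 and 23.6 FPKM in 2DG, against 18.6, 16.7 and 17.2 FPKM in Phen and 20.4, 20.6 and 18 FPKM in DMSO (log2 fold change 0.45, adjusted p = 0.00021, corrected 0.75). ARRDC1 was low, at 0.764, 0.800 and 1.11 FPKM in 2DG and 0.199, 0.206 and 0.383 FPKM in Phen, and its log2 fold change of 1.47 (adjusted p = 0.00044) shrank to 0.44 with the correction. This list holds TXNIP and ARRDC4, which the study singled out in these libraries, so its direction is not independent evidence.

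**Figure D3:**
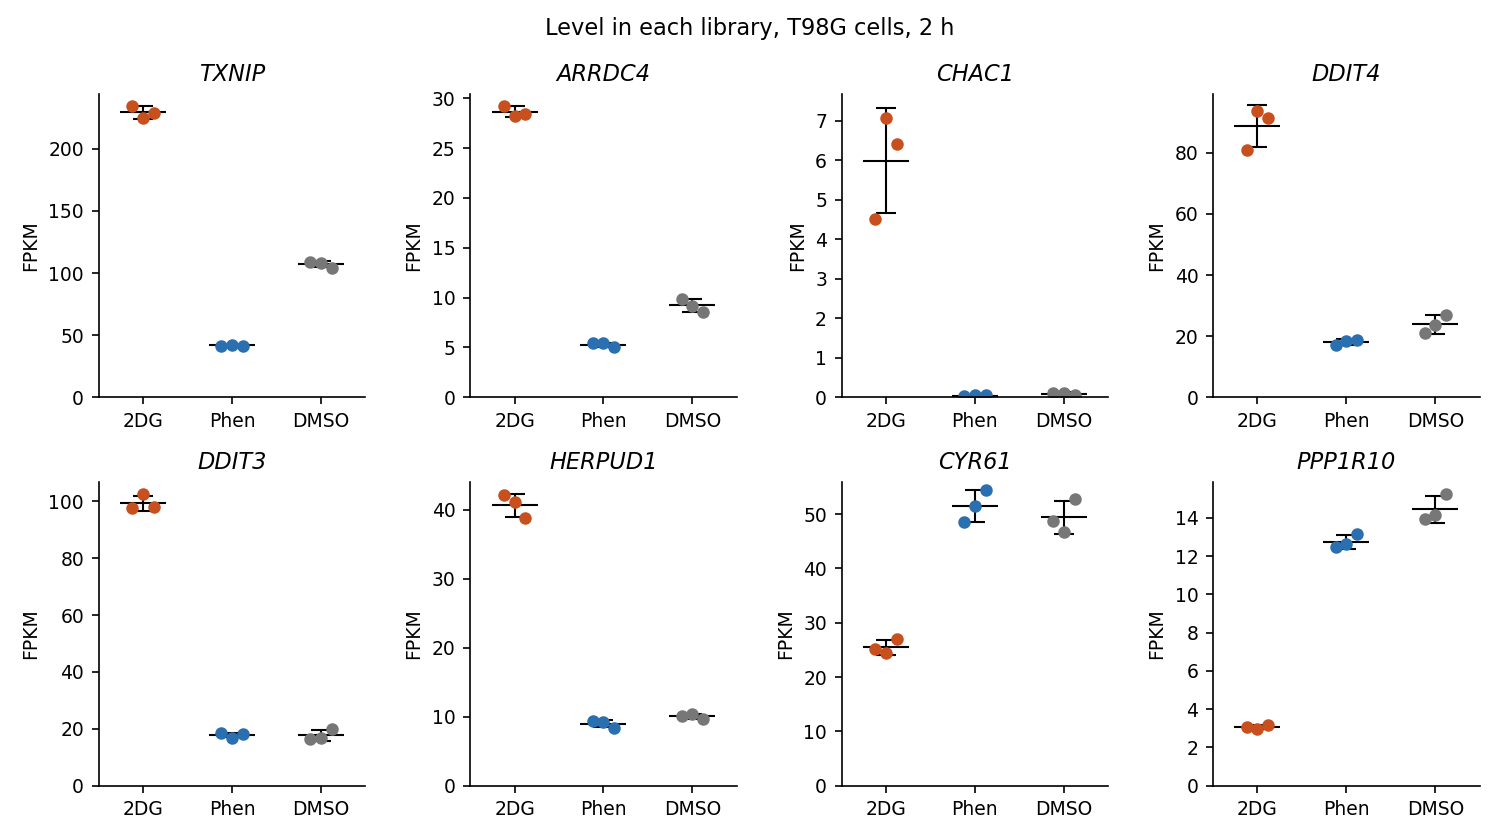
FPKM (vertical axes, from 0) of 8 genes in each 2DG, Phen and DMSO library (points), with the mean and SD of each group of 3. TXNIP and ARRDC4 are highest in 2DG and lowest in Phen, CHAC1, DDIT4, DDIT3 and HERPUD1 are high in 2DG alone, and CYR61 and PPP1R10 are low in 2DG.

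The 250 bases before the start sites of these 2 genes are shown because this pair moved in opposite directions with the agents and MondoA-MLX is known to bind E-box-like elements. They come from RefSeq promoters on GRCh38.p14, in which 98 of the 125 named genes had an entry. Capitals mark, for TXNIP on the minus strand (chr1:145996580-145996829), a pair of E-box-like elements, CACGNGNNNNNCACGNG, 88 bases before the start, and for ARRDC4 on the plus strand (chr15:97960453-97960702), the E-box CACGTG, 210 bases before it. Both strands were searched, and the capitals overlap no other searched motif.
TXNIP: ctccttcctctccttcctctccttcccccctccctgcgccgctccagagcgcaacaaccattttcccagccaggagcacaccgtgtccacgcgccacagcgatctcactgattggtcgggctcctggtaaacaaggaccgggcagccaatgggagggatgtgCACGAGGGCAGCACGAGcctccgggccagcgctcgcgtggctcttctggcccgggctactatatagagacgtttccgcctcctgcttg
ARRDC4: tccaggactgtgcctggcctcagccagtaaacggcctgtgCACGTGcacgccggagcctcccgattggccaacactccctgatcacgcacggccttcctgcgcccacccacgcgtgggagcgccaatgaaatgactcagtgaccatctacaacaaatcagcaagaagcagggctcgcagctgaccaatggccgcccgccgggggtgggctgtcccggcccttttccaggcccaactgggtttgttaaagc
The paired element was searched after the data were seen and occurs in 0.057% of the 35116 promoters, while CACGTG occurs in 7.26%. CACGTG was found in the promoters of 14 of the 98 named genes with an entry, ARRDC4 included and TXNIP not. A match describes the letters and not the binding of a factor.

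The integrated stress response list, chosen with earlier results of these data known, held 6 of the 31 genes called higher, CHAC1 first. These were 6 of its 34 tested members, beside 0.256% of all tested genes. CHAC1, a glutathione-degrading enzyme induced through ATF4, was at 4.50, 7.07 and 6.39 FPKM in 2DG, against 0.0264, 0.0473 and 0.0507 FPKM in Phen and 0.118, 0.0995 and 0.0484 FPKM in DMSO. It was nearly silent outside 2DG: the Phen libraries held 1, 2 and 2 fragments, against 181, 287 and 270 in 2DG, a ratio per mapped fragment of 143 (95% interval 61.2 to 443, exact binomial, counting error only). On the log2(FPKM + 0.1) scale, which understates the change of so low a gene, the log2 fold change was 5.41 (SE 0.26, adjusted p = 2.7e-09), and 4.49 after the correction. DDIT3, which encodes the pro-apoptotic transcription factor CHOP, was at 97.6, 102 and 97.9 FPKM in 2DG, against 18.3, 16.9 and 18.3 FPKM in Phen and 16.3, 16.8 and 19.9 FPKM in DMSO. Phen and DMSO libraries overlapped and 2DG stood above both, with a log2 fold change over Phen of 2.47 (SE 0.072, adjusted p = 5.4e-12) and the nearly equal corrected value of 2.46.

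GDF15, a secreted stress cytokine, was at 2.33, 2.96 and 2.83 FPKM in 2DG, against 0.286, 0.373 and 0.30 FPKM in Phen, a log2 fold change of 2.74 (adjusted p = 1.5e-06). SESN2, a leucine sensor that inhibits mTORC1, was at 4.93, 5.37 and 5.53 FPKM in 2DG, against 1.10, 1.09 and 1.25 FPKM in Phen, a log2 fold change of 2.11 (adjusted p = 8.3e-07). DDIT4, an inhibitor of mTORC1 also known as REDD1, was at 81.0, 93.8 and 91.4 FPKM in 2DG, against 17.0, 18.4 and 18.6 FPKM in Phen and 20.9, 23.7 and 27.0 FPKM in DMSO. On the log2 scale DDIT4 changed by 2.29 in 2DG over Phen (SE 0.11, adjusted p = 2.7e-09). All 3 transcripts are GC-rich (59.6 to 64.1%), and their corrected values were smaller, 1.62 for GDF15, 1.31 for SESN2 and 1.49 for DDIT4. ATF4 itself was at 176, 177 and 178 FPKM in 2DG, against 86.7, 90.4 and 90.0 FPKM in Phen (log2 fold change 0.99, adjusted p = 1.6e-09, corrected 0.42, adjusted p = 0.0024).

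Over the whole list of 36 integrated stress response genes, 34 were tested, 24 rose, 5 fell and 5 did not pass, with a median of 0.82. After the correction 20 rose, 1 fell and 13 did not pass, with a median of 0.30. Genes of this response did not all move in the same direction. The regulators ATF4 and DDIT3 and the target CHAC1 rose, while SLC7A11, the cystine transporter, fell (34.1, 31.3 and 32.2 FPKM in 2DG, against 55.4, 48.5 and 49.9 FPKM in Phen, log2 fold change -0.65, adjusted p = 8.7e-05, corrected -0.34). The serine synthesis genes differed among themselves, with PHGDH at 1.16 (adjusted p = 0.0015, corrected 0.96) and PSAT1 at -0.14 (adjusted p = 0.011, corrected 0.07), both named here after their values were seen. TRIB3, a pseudokinase that binds ATF4 and was also picked after its value was seen, had 0.73 as deposited (adjusted p = 4.0e-05) but -0.21 after the correction (adjusted p = 0.23).

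Among 21 genes of amino acid transport and tRNA charging, 10 rose, 8 fell and 3 did not pass, and 6 rose and 4 fell after the correction. SLC3A2, the heavy chain of several amino acid exchangers, rose to 81.3, 87.8 and 87.8 FPKM in 2DG, against 46.1, 50.4 and 50.9 FPKM in Phen (log2 fold change 0.80, adjusted p = 3.2e-05, corrected 0.49). SLC38A2, a neutral amino acid transporter, went the other way, at 104, 98.3 and 101 FPKM in 2DG, against 153, 150 and 146 FPKM in Phen and 124, 121 and 111 FPKM in DMSO. SLC38A2 fell by 0.57 (adjusted p = 2.4e-05, corrected -0.27). Against DMSO it had -0.23 in 2DG (adjusted p = 0.012) and 0.34 in Phen (adjusted p = 0.032), of which the corrected value in 2DG did not pass (0.0062, adjusted p = 0.79) and that in Phen did (0.27, adjusted p = 4.2e-07). Its relative SLC38A1 fell by 0.43 (adjusted p = 8.4e-05), with a corrected value of -0.17.

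HERPUD1 and HSPA5 were the 2 genes called higher among 27 tested in the endoplasmic reticulum list, beside 0.256% of all tested genes. That list was also chosen with earlier results of these data known. HERPUD1, a component of the degradation machinery of the endoplasmic reticulum, was at 42.1, 41.1 and 38.8 FPKM in 2DG, against 9.41, 9.19 and 8.42 FPKM in Phen and 10.1, 10.5 and 9.69 FPKM in DMSO. HSPA5, the chaperone BiP, was at 422, 398 and 402 FPKM in 2DG, against 182, 178 and 171 FPKM in Phen and 178, 178 and 166 FPKM in DMSO. In both genes the 2DG libraries lay far above the others, with log2 fold changes of 2.16 (SE 0.049, adjusted p = 3.3e-13) and 1.2 (SE 0.051, adjusted p = 6.6e-10). XBP1, the transcription factor of the IRE1 branch, was at 53.2, 50.8 and 51.7 FPKM in 2DG, against 33.1, 34.0 and 33.7 FPKM in Phen (log2 fold change 0.63, adjusted p = 2.1e-08). DNAJB9, a cochaperone of BiP, was at 18, 16.3 and 16.2 FPKM in 2DG, against 9.05, 9.35 and 8.46 FPKM in Phen (log2 fold change 0.90, adjusted p = 3.0e-05). The corrected values of these 4 genes were larger than the deposited ones, 2.25, 1.38, 0.86 and 1.19. AC012181.2, a long noncoding gene, had the largest log2 fold change of the called genes after CHAC1 (4.02, adjusted p = 1.7e-08). The Phen libraries held 4, 4 and 2 of its fragments, against 79, 65 and 83 in 2DG. AC012181.2 lies wholly inside HERPUD1 on the same strand, at chr16:56941028-56941726 on GRCh38, and whether its fragments belong to HERPUD1 transcripts was not tested.

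Of the 28 genes of this list, 27 were tested, 11 rose, 7 fell and 9 did not pass, with a median of 0.09. After the correction 19 rose and 8 did not pass, with a median of 0.13. SDF2L1, a partner of BiP named here after its values were seen, was at 4.37, 7.10 and 6.74 FPKM in 2DG, against 0.296, 0.797 and 0.760 FPKM in Phen (log2 fold change 3.16, adjusted p = 0.00039, corrected 2.01). The sensors, picked likewise, differed little: ATF6 had -0.28 (adjusted p = 0.0014, corrected -0.02) and EIF2AK3, which encodes PERK, -0.10 (adjusted p = 0.21, corrected 0.11, adjusted p = 0.044).

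The upstream bases of CHAC1, HERPUD1 and HSPA5 are shown because these genes lead the stress response and endoplasmic reticulum groups and carry the elements that their regulators are known to bind. Capitals mark the C/EBP-ATF element TGATGNAAN, here on the opposite strand with the same letters in both genes, in CHAC1 (chr15:40953221-40953470, plus strand) and HERPUD1 (chr16:56931892-56932141, plus strand), and the endoplasmic reticulum stress element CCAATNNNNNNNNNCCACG in HSPA5 (chr9:125241344-125241593, minus strand).
CHAC1: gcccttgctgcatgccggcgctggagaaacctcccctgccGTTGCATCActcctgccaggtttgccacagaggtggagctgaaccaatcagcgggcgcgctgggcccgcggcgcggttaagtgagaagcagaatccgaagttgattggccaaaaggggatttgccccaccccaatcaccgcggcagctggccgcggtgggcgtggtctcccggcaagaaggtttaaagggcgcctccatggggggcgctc
HERPUD1: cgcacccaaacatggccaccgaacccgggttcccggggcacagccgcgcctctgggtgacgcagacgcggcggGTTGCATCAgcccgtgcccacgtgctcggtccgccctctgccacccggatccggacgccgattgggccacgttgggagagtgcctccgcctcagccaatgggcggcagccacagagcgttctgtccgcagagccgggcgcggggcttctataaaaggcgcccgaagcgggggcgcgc
HSPA5: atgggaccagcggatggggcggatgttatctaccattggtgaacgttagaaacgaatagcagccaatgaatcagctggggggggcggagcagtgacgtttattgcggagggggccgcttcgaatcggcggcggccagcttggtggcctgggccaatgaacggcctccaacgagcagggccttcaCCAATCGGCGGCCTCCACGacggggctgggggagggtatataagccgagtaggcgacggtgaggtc
TGATGNAAN occurred in 3.61% of all promoters and in 7 of the 98 named genes with an entry. A gene can have several promoters, so the share and the count are not alike. The 7 include SLC38A1 and AJUBA, which fell. The endoplasmic reticulum stress element occurred in 0.0769% of promoters, and in 2 of the named genes, HSPA5 and XBP1. HERPUD1 also holds CACGTG, 159 bases before the start. In CHAC1 the window follows the start that RefSeq gives, which lies inside the gene as drawn in the annotation of the authors (chr15:40952962-40956519). The CArG box, which SRF binds, was not found in these windows of named genes.

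**Figure D4:**
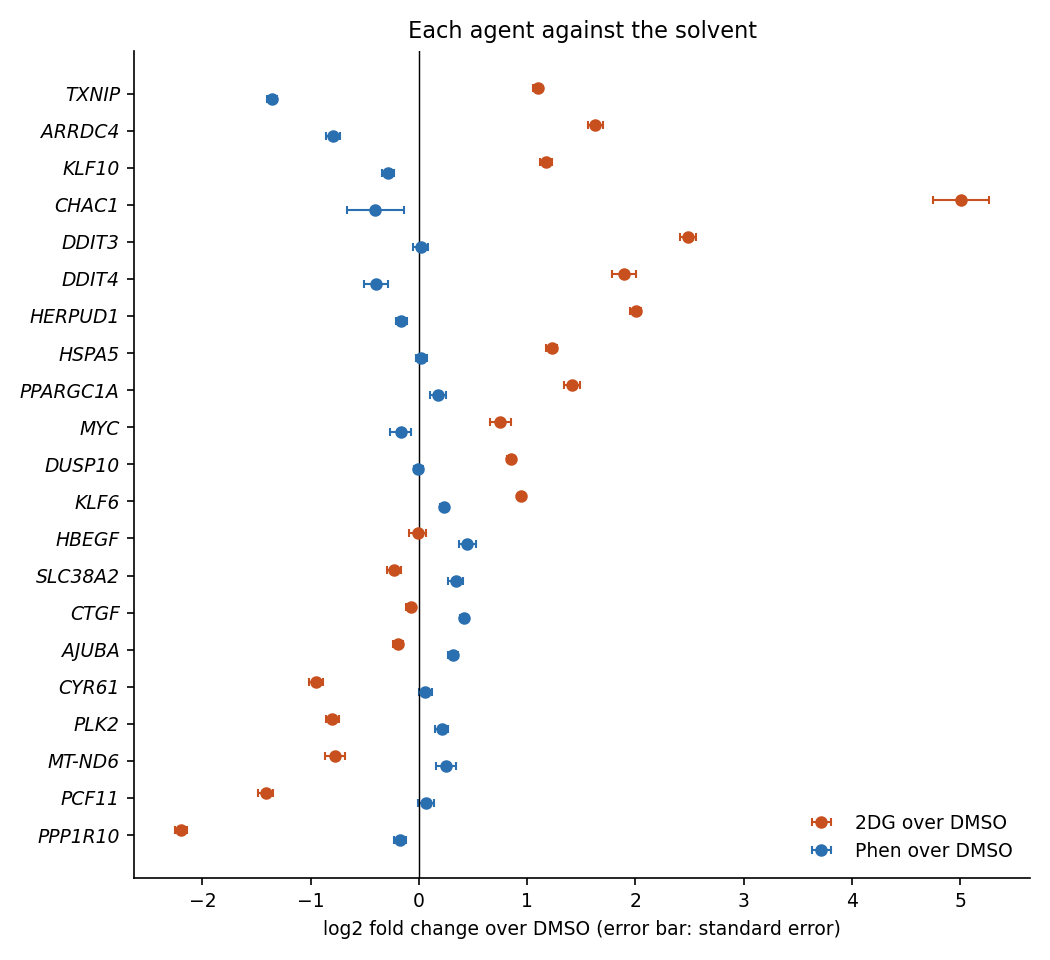
Log2 fold change over DMSO (horizontal axis, error bars are standard errors) of 21 named genes (vertical axis) in 2DG (orange, upper point) and in Phen (blue, lower point). TXNIP, ARRDC4 and KLF10 passed the test above 0 in 2DG and below 0 in Phen. CTGF, AJUBA, SLC38A2, HBEGF and KLF6 passed it above 0 in Phen, KLF6 also in 2DG.

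Genes of growth and energy control followed. Of 22 inhibitors of mTORC1 and genes of the AMPK pathway, 17 were tested, 10 rose and 3 fell (10 and 4 after the correction). Besides DDIT4 and SESN2, PPARGC1A, the coactivator PGC-1α of mitochondrial biogenesis, was at 4.95, 4.60 and 4.66 FPKM in 2DG, against 2.03, 1.90 and 1.93 FPKM in Phen (log2 fold change 1.24, adjusted p = 3.5e-08, corrected 1.51). SIK1, a salt-inducible kinase, was at 3.65, 3.53 and 3.40 FPKM in 2DG, against 1.46, 1.29 and 1.32 FPKM in Phen (log2 fold change 1.32, adjusted p = 1.1e-05, corrected 0.71). In Phen neither differed from DMSO beyond the test (0.18 and 0.09, adjusted p = 0.43 and 0.78).

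Among 25 immediate early genes, 16 were tested, 12 rose and 1 fell, with a median of 0.70. With the correction 7 rose, 3 fell and 6 did not pass, with a median of -0.01. KLF10 and KLF6, of the Kruppel-like factors, rose under both. KLF10, a factor of the TGF-beta response, was at 39.2, 40.8 and 40.7 FPKM in 2DG, against 14.7, 14.4 and 14.4 FPKM in Phen and 17.5, 18.5 and 17.2 FPKM in DMSO, without overlap among the 3 groups. KLF10 changed by 1.46 on the log2 scale (adjusted p = 1.7e-10, corrected 1.54), made up of 1.18 in 2DG and -0.29 in Phen over DMSO (adjusted p = 2.1e-09 and 0.032). KLF6 was at 20.6, 19.8 and 18.8 FPKM in 2DG, against 12, 12.3 and 11.7 FPKM in Phen and 10.3, 9.91 and 10.4 FPKM in DMSO, and thus rose in both agents (0.95 in 2DG and 0.23 in Phen over DMSO, adjusted p = 1.6e-10 and 0.011). MYC, the growth-promoting transcription factor, was at 16.4, 17.8 and 18.4 FPKM in 2DG, against 8.81, 9.02 and 9.79 FPKM in Phen (log2 fold change 0.92, adjusted p = 9.0e-06, corrected 0.93). FOSL2, an AP-1 subunit, had 0.68 (corrected 0.41), and IER2 had 0.87 as deposited (adjusted p = 1.1e-06) but -0.09 after the correction (adjusted p = 0.75).

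Of 22 feedback regulators and outputs of ERK, 17 were tested, 10 rose and 3 fell, and 6 rose and 2 fell after the correction. DUSP10, a phosphatase of JNK and p38, was at 60.5, 62.7 and 63.3 FPKM in 2DG, against 33.6, 33.9 and 35.7 FPKM in Phen (log2 fold change 0.85, adjusted p = 1.5e-09, corrected 0.99). SPRY2, an inhibitor of receptor signalling to ERK, had 0.93 (adjusted p = 3.5e-05, corrected 0.96), PHLDA1 had 0.51 (adjusted p = 1.0e-05, corrected 0.72) and DUSP5, an ERK phosphatase, 0.79 (adjusted p = 1.5e-05, corrected 0.29). Of 19 secreted cytokines and growth factors, 13 were tested, and 6 rose and 2 fell with and without the correction. LIF was at 11, 13.2 and 12.4 FPKM in 2DG, against 3.86, 4.29 and 5.18 FPKM in Phen (log2 fold change 1.44, adjusted p = 0.0001, corrected 0.84). VEGFA, the angiogenic growth factor, was at 6.15, 6.67 and 6.47 FPKM in 2DG, against 2.44, 2.77 and 3.02 FPKM in Phen (log2 fold change 1.2, adjusted p = 9.3e-06, corrected 0.83). HBEGF, an EGF receptor ligand, fell by 0.46 (adjusted p = 0.00045, corrected -0.54). It was at 3.15, 3.76 and 3.52 FPKM in 2DG, against 4.32, 4.74 and 5.43 FPKM in Phen and 3.67, 3.21 and 3.64 FPKM in DMSO, so that Phen alone stood above the solvent (0.45, adjusted p = 0.019).

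PPP1R10 and PCF11, factors that act where transcription ends, were 2 of the 3 largest falls among the genes called lower. PPP1R10, which encodes PNUTS, the nuclear targeting subunit of protein phosphatase 1 that slows RNA polymerase II at termination, was at 3.05, 2.98 and 3.19 FPKM in 2DG, against 12.5, 12.6 and 13.2 FPKM in Phen and 13.9, 14.1 and 15.3 FPKM in DMSO. PCF11, a subunit of the cleavage complex, was at 4.04, 3.57 and 3.81 FPKM in 2DG, against 11, 10.8 and 10.5 FPKM in Phen and 10.7, 10.6 and 9.62 FPKM in DMSO. Both were picked among genes with no overlap between 2DG and Phen, and their 2DG libraries were also below every DMSO library. The log2 fold changes of 2DG over Phen were -2.02 (SE 0.055, adjusted p = 3.1e-12, corrected -2.37) and -1.48 (SE 0.071, adjusted p = 2.7e-09, corrected -1.25). RBBP6, a ubiquitin ligase that takes part in 3' end processing, was at 9.50, 8.67 and 8.74 FPKM in 2DG, against 20.1, 19.8 and 19.2 FPKM in Phen (log2 fold change -1.13, adjusted p = 2.5e-08, corrected -0.95). CSTF3, a cleavage stimulation subunit, was at 10.7, 10.2 and 10.0 FPKM in 2DG, against 19.0, 19.8 and 17.6 FPKM in Phen (log2 fold change -0.86, adjusted p = 1.8e-06, corrected -0.61).

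Of the 19 genes of transcription termination and the PNUTS complex, 3 rose, 10 fell and 6 did not pass. After the correction 6 rose, 5 fell and 8 did not pass, and the median was -0.16 as deposited and 0.04 after the correction. CPSF3, the endonuclease, fell by 0.30 (adjusted p = 0.00015, corrected -0.11). Among 17 SR splicing factors and their kinases, 5 rose and 9 fell as deposited, but 12 rose and 2 fell after the correction. CLK1, a kinase of SR proteins, fell under both, at 4.87, 3.65 and 3.82 FPKM in 2DG, against 6.74, 7.10 and 6.99 FPKM in Phen (log2 fold change -0.75, adjusted p = 4.0e-05, corrected -0.45). SRSF7 and SRSF4 rose under both (0.27 and 0.25, corrected 0.51 and 0.52), while TRA2A, with -0.31, did not pass after the correction (-0.08, adjusted p = 0.065).

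The remaining genes of the 10 largest falls were mixed. ZBED8 was at 1.61, 1.40 and 1.22 FPKM in 2DG, against 4.42, 4.69 and 4.76 FPKM in Phen (log2 fold change -1.65, adjusted p = 9.3e-07, corrected -1.39). ZNF594 (-1.40, corrected -1.18), AL161911.1 (-1.10, corrected -0.89), and the antisense RNAs RBM26-AS1 (-1.09, corrected -0.80) and TMPO-AS1 (-1.06, corrected -1.08) were all under 5 FPKM in every library of both groups. The 10 largest falls were picked among genes whose libraries do not overlap, so the order of their 2DG and Phen libraries adds no support. The antisense pair is named for RBM26 and TMPO on the opposite strand. Strand-specific counting is meant to keep such transcripts apart, and leakage between the strands was not tested. EDN1, the vasoconstrictor peptide endothelin, was at 2.14, 1.37 and 1.37 FPKM in 2DG, against 3.26, 3.47 and 3.54 FPKM in Phen (log2 fold change -1.06, adjusted p = 3.2e-05, corrected -0.92). CEBPD, a C/EBP transcription factor, was at 0.845, 1.37 and 1.25 FPKM in 2DG, against 2.49, 2.55 and 2.23 FPKM in Phen (log2 fold change -1.03, adjusted p = 9.7e-05), and its corrected value was -2.27 (adjusted p = 9.8e-05). Of 133 tested genes with an antisense symbol, 9 rose and 42 fell (6.77% and 31.6%, beside 31.6% and 35.3% of all tested genes), with a median of -0.18. After the correction 3 rose and 43 fell (2.29% and 32.8%, beside 23.8% and 22.6%). Of 422 zinc finger genes of the ZNF series, 90 rose and 163 fell (21.3% and 38.6%), and 102 and 96 did so after the correction.

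CYR61, a matricellular protein and target of YAP and TEAD, fell to 25.1, 24.4 and 27.1 FPKM in 2DG, against 48.5, 51.6 and 54.4 FPKM in Phen and 48.8, 46.7 and 52.8 FPKM in DMSO. The 2DG libraries lay below all others, and Phen and DMSO overlapped (log2 fold change -1.01, SE 0.061, adjusted p = 3.4e-08, corrected -0.95). CTGF, its relative, was at 14.4, 14.4 and 13.8 FPKM in 2DG, against 19.5, 19.4 and 21.2 FPKM in Phen and 14.9, 15 and 15 FPKM in DMSO. Here it was Phen that stood apart, with 0.42 over DMSO (adjusted p = 0.00014), while 2DG had -0.08 (adjusted p = 0.11), and the fall of 2DG against Phen was 0.49 (adjusted p = 8.3e-07, corrected -0.63). AJUBA, a LIM protein that restrains the LATS kinases, fell by 0.51 (adjusted p = 2.3e-06, corrected -0.73), with -0.19 in 2DG and 0.32 in Phen over DMSO (adjusted p = 0.0043 and 0.0069). F3, the tissue factor gene, was at 9.46, 9.11 and 8.95 FPKM in 2DG, against 14.7, 16.8 and 16.5 FPKM in Phen (log2 fold change -0.79, adjusted p = 2.2e-06, corrected -0.59). Of 22 YAP and SRF targets, 20 were tested, 5 rose, 10 fell and 5 did not pass (3, 9 and 8 after the correction), with a median of -0.18. The shares that rose and fell were 25% and 50%, beside 31.6% and 35.3% of all tested genes.

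Heat shock genes that passed the test were mostly lower in 2DG. Of 20 genes, 19 were tested, 4 rose, 11 fell (57.9%, beside 35.3% of all tested genes) and 4 did not pass, with a median of -0.16. After the correction 3 rose and 12 fell (63.2%, beside 22.6% of all genes), with a median of -0.18. DNAJA1, a cochaperone of HSP70, was at 177, 168 and 173 FPKM in 2DG, against 243, 250 and 241 FPKM in Phen (log2 fold change -0.51, adjusted p = 2.7e-05, corrected -0.26). HSPA8, the constitutive HSP70, was at 587, 551 and 560 FPKM in 2DG, against 713, 695 and 693 FPKM in Phen (log2 fold change -0.31, adjusted p = 7.6e-05, corrected -0.18). DNAJB4 and HSPH1, further HSP70 partners, fell by 0.71 and by 0.42 (adjusted p = 0.00011 and 0.00012, corrected -0.43 and -0.14). The inducible pair HSPA1A and HSPA1B, whose coding sequences are nearly identical so that the split of fragments between them is uncertain, fell by 0.72 and by 0.69 (adjusted p = 0.0091 and 0.0032, corrected -1.53 and -1.43). HSPA1A was at 3.07, 4.06 and 5.02 FPKM in 2DG, against 6.64, 6.66 and 6.52 FPKM in Phen. HSPA6, a strictly stress-inducible HSP70, was near the floor, at 0.173, 0.128 and 0.206 FPKM in 2DG, against 0.206, 0.144 and 0.220 FPKM in Phen, and the groups overlapped (log2 fold change -0.11, 95% interval -0.73 to 0.51, adjusted p = 0.75), although its corrected value of -0.84 passed (adjusted p = 0.017).

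In glycolysis, which 2DG blocks and on which cells depend more under Phen, 26 of 28 genes were tested, 16 rose, 6 fell and 4 did not pass, with a median of 0.42. With the correction 15 rose and 2 fell, with a median of 0.15. HK2, the hexokinase that phosphorylates 2DG, was at 44.3, 48.0 and 46.7 FPKM in 2DG, against 29.8, 29.0 and 29.5 FPKM in Phen and 28.5, 29.3 and 31.3 FPKM in DMSO. It was higher in every 2DG library than in any other (log2 fold change 0.65, SE 0.046, adjusted p = 2.0e-07, corrected 0.58). PFKFB3, which makes the activator of phosphofructokinase, had 0.64 (adjusted p = 3.1e-05) and ENO2, an enolase, 0.67 (adjusted p = 0.00076), with corrected values of 0.17 and 0.24. LDHA, lactate dehydrogenase, was at 657, 623 and 629 FPKM in 2DG, against 752, 755 and 745 FPKM in Phen, a fall of 0.24 (adjusted p = 0.00054) that did not pass after the correction (-0.00, adjusted p = 0.93).

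The glucose transporters split. SLC2A3 was at 7.75, 8.07 and 7.64 FPKM in 2DG, against 5.72, 6.16 and 5.99 FPKM in Phen (log2 fold change 0.39, adjusted p = 1.4e-05, corrected 0.52), and SLC2A1, the most widespread of them, rose by 0.58 (adjusted p = 0.00079, corrected 0.30). SLC2A12 and SLC2A10 fell by 0.91 and by 0.38 (adjusted p = 8.7e-05 and 0.00017, corrected -0.64 and -0.42). SLC2A12 was at 0.813, 0.635 and 0.676 FPKM in 2DG, against 1.59, 1.32 and 1.33 FPKM in Phen. Of 34 genes that make hexosamines and the precursor of N-glycans, which 2DG can enter, 12 rose, 15 fell and 7 did not pass, with a median of -0.08. The shares that rose and fell were 35.3% and 44.1%, not far from 31.6% and 35.3% of all tested genes. After the correction 8 rose and 8 fell, with a median of 0.01. ALG11, a mannosyltransferase, was at 2.19, 1.71 and 1.93 FPKM in 2DG, against 3.27, 3.24 and 2.98 FPKM in Phen (log2 fold change -0.68, adjusted p = 0.00011, corrected -0.45), and PMM2, phosphomannomutase, had 0.35 (adjusted p = 0.00031, corrected 0.44). PGM3 and ALG8 fell by 0.42 and by 0.38 (adjusted p = 0.0001 and 0.00016), with corrected values of -0.12 and -0.19.

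Transcripts encoded by the mitochondrial genome took 4.78% ± 0.142 of the fragments in genes in 2DG and 4.76% ± 0.205 in Phen, against 5.58% ± 0.478 in DMSO (SD, n = 3 each; 2DG against Phen, exact permutation p = 1). Of the 15 mitochondrially encoded mRNAs and rRNAs, 3 fell and 12 did not pass. The largest difference was in MT-ND6, a complex I subunit and the only one of these 15 genes on the minus strand, which was at 332, 376 and 365 FPKM in 2DG, against 726, 670 and 791 FPKM in Phen and 674, 610 and 555 FPKM in DMSO. The 2DG libraries were below all others (log2 fold change -1.03, SE 0.096, adjusted p = 3.1e-06, corrected -0.74). The rRNA MT-RNR1 fell by 0.38 (adjusted p = 0.0021, corrected -0.22), while MT-RNR2, with -0.20 (adjusted p = 0.044), did not pass with any 1 of the 6 libraries left out (-0.22 to -0.19, adjusted p = 0.057 to 0.10). MT-ND4L, at 2887, 2827 and 2832 FPKM in 2DG and 2354, 2597 and 2574 FPKM in Phen, had 0.18 (adjusted p = 0.063). After the correction 10 of the 15 rose and 2 fell, MT-ND4L with 0.52.

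The target of Phen, complex I, has 37 nuclear-encoded subunits in the list, of which 36 were tested, 15 rose, 7 fell and 14 did not pass (17, 4 and 15 after the correction), with a median of 0.05. NDUFV1, a flavoprotein subunit, was at 11.7, 14.5 and 14.6 FPKM in 2DG, against 4.27, 5.37 and 6.12 FPKM in Phen and 5.38, 6.30 and 10.2 FPKM in DMSO (log2 fold change 1.36, adjusted p = 0.0012, corrected 0.58). NDUFS6 had 0.58 as deposited and -0.11 after the correction, NDUFS1 -0.24 and 0.01, and NDUFA6 -0.17 and -0.10 (adjusted p as deposited 0.0013, 0.0014 and 0.0009).

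**Figure D5:**
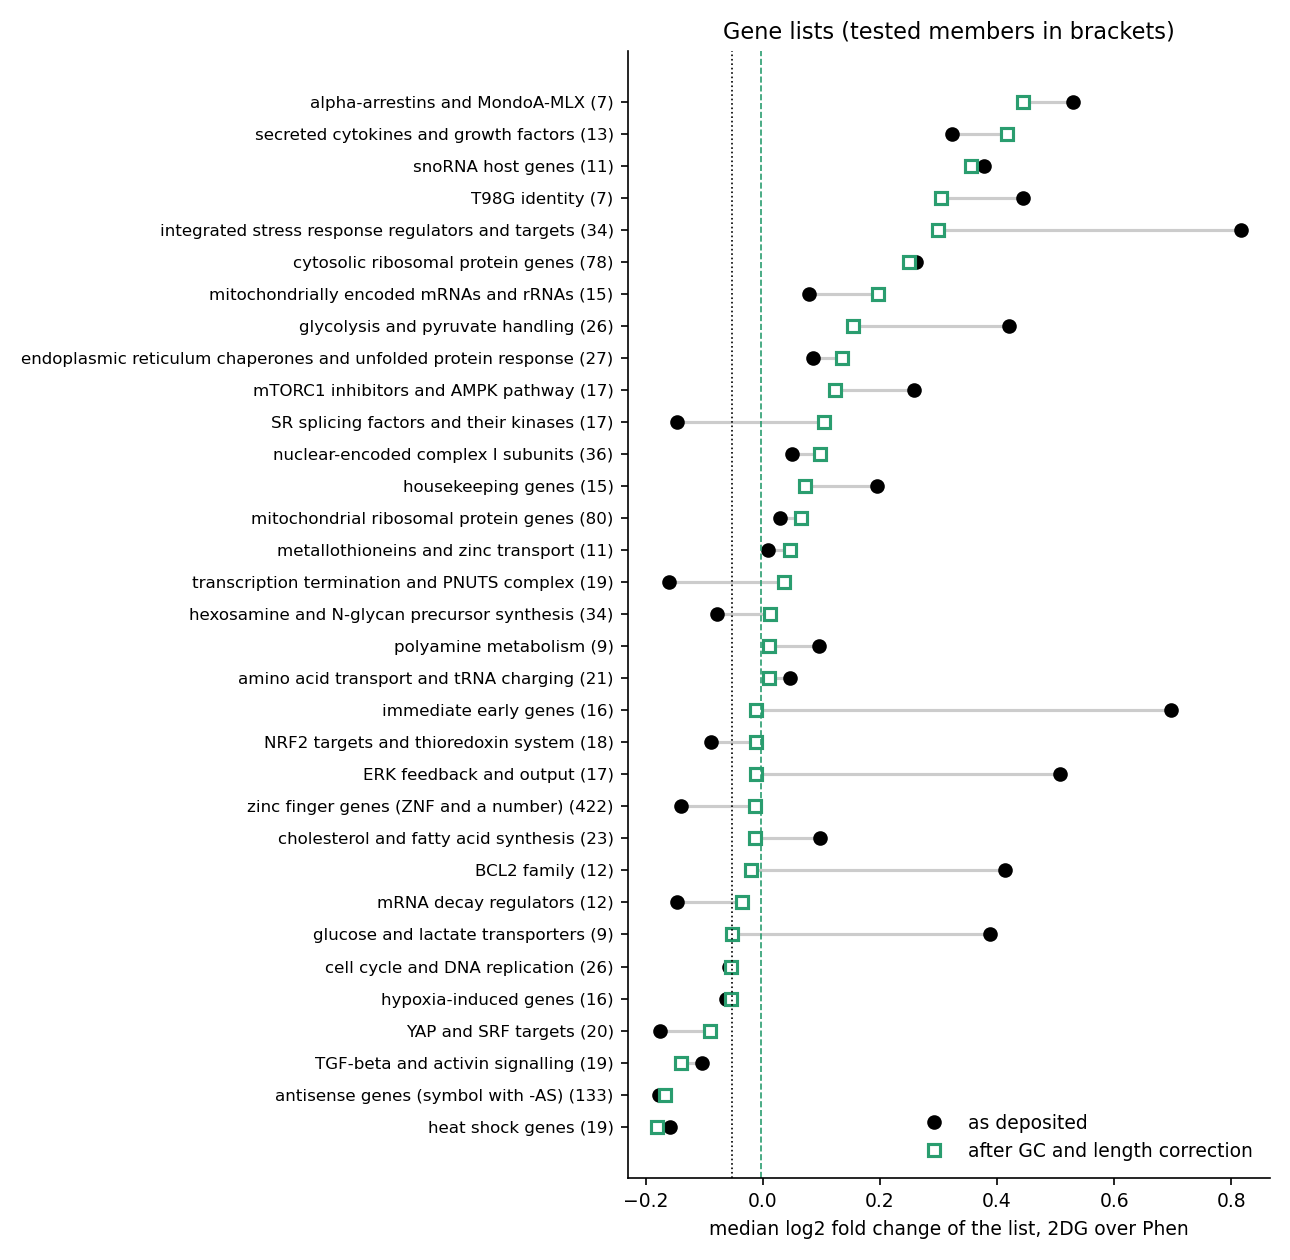
Median log2 fold change of 2DG over Phen (horizontal axis) of the gene lists (vertical axis, tested members in brackets), as deposited (black circles) and after the correction (green squares), for lists with at least 7 tested members. The dotted and dashed lines are the medians of all tested genes, -0.05 and -0.00; immediate early genes, ERK outputs, the BCL2 family and the glucose transporters lie near the line of all genes after the correction.

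In sterol and fatty acid synthesis 23 of 24 genes were tested, 10 rose and 9 fell (9 and 6 after the correction). INSIG1, which retains the sterol-sensing SREBP complex in the endoplasmic reticulum, was at 189, 189 and 186 FPKM in 2DG, against 124, 122 and 119 FPKM in Phen (log2 fold change 0.64, adjusted p = 1.9e-07, corrected 0.78). MVD and MVK, enzymes of the mevalonate pathway, had 2.00 and 0.86 (adjusted p = 0.00017 and 0.00089), with corrected values of 0.92 and 0.18. Among 18 tested NRF2 targets and thioredoxin genes 8 rose and 9 fell (8 and 7 after the correction). TXNRD1, thioredoxin reductase, fell by 0.36 (adjusted p = 6.4e-06, corrected -0.20), PRDX1, a peroxiredoxin, by 0.32 (adjusted p = 0.00011, corrected -0.24) and NFE2L2, which encodes NRF2, by 0.38 (adjusted p = 0.00038, corrected -0.12).

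Polyamine genes moved at both ends of the pathway. AMD1, which supplies decarboxylated S-adenosylmethionine for polyamine synthesis, was at 19.6, 18.4 and 18.6 FPKM in 2DG, against 27.6, 29.3 and 28.5 FPKM in Phen (log2 fold change -0.59, adjusted p = 1.8e-05, corrected -0.30). SAT1, the acetyltransferase of polyamine breakdown, was at 16.4, 14.8 and 14.2 FPKM in 2DG, against 9.19, 8.61 and 8.86 FPKM in Phen (log2 fold change 0.76, adjusted p = 2.0e-05, corrected 0.95). SMOX, spermine oxidase, was at 3.91, 5.13 and 5.16 FPKM in 2DG, against 1.16, 1.34 and 1.47 FPKM in Phen (log2 fold change 1.76, adjusted p = 0.00043, corrected 0.85). Over the list, 9 of 10 genes were tested, and 5 rose and 2 fell (4 and 1 after the correction).

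Of 16 hypoxia-induced genes 5 rose and 7 fell (31.2% and 43.8%, beside 31.6% and 35.3% of all tested genes; 5 and 6 after the correction). PLIN2, a lipid droplet coat protein, was at 17.2, 17.8 and 17.2 FPKM in 2DG, against 11.6, 11.8 and 12.4 FPKM in Phen (log2 fold change 0.54, adjusted p = 2.6e-05, corrected 0.61), and BNIP3L, a mitophagy receptor, fell by 0.41 (adjusted p = 0.00025, corrected -0.11). Of the metallothioneins and zinc transporters, 11 of 14 were tested, and 4 rose and 5 fell (3 and 1 after the correction). MT1X was at 13.6, 19.6 and 18.4 FPKM in 2DG, against 4.65, 6.56 and 6.53 FPKM in Phen (log2 fold change 1.53, adjusted p = 0.00097, corrected 1.21). MT2A had 1.31 (adjusted p = 0.0018, corrected 0.99).

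Among 19 genes of TGF-beta and activin signalling 6 rose and 5 fell (6 and 8 after the correction). As deposited these were 31.6% and 26.3%, beside 31.6% and 35.3% of all tested genes. FST, the activin antagonist follistatin, was at 10.3, 10.2 and 10.1 FPKM in 2DG, against 16.4, 17.0 and 16.7 FPKM in Phen (log2 fold change -0.70, adjusted p = 6.7e-07, corrected -0.56), and INHBA, the activin subunit, fell by 0.61 (adjusted p = 7.0e-05, corrected -0.32). The inhibitors of DNA binding ID1 and ID2 had 0.86 and 0.65 (adjusted p = 9.9e-06 and 3.6e-06), and after the correction 0.16 and 0.37 (adjusted p = 0.21 and 0.014), of which ID1 did not pass.

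Of 28 cell cycle and replication genes, 26 were tested, 10 rose and 13 fell (6 and 11 after the correction). The polo-like kinases parted. PLK2 was at 53.3, 50.1 and 51.3 FPKM in 2DG, against 107, 104 and 102 FPKM in Phen (log2 fold change -1.01, adjusted p = 2.5e-08, corrected -0.89). PLK3, a stress-responsive member, was at 1.16, 1.53 and 1.36 FPKM in 2DG, against 0.343, 0.434 and 0.360 FPKM in Phen (log2 fold change 1.59, adjusted p = 5.7e-05, corrected 0.71). CCNA2, cyclin A2, and AURKA, a mitotic kinase, fell by 0.48 and by 0.34 (adjusted p = 3.2e-05 and 3.7e-05, corrected -0.26 and -0.25). In the BCL2 family 12 of 16 genes were tested, 7 rose and 1 fell, but 1 rose and 2 fell after the correction. MCL1, which protects from apoptosis, was at 52.2, 48.7 and 51.6 FPKM in 2DG, against 72.2, 72.1 and 67.4 FPKM in Phen (log2 fold change -0.47, adjusted p = 6.6e-05, corrected -0.32). PMAIP1, which encodes the opposing protein NOXA, was at 20.2, 18.6 and 19.7 FPKM in 2DG, against 13.0, 12.3 and 12.2 FPKM in Phen (log2 fold change 0.64, adjusted p = 0.0001, corrected 0.93). BAX and BAK1, the pore-forming members, had 1.03 and 0.68 as deposited (adjusted p = 0.0037 and 0.0032) but did not pass after the correction (0.28 and -0.06, adjusted p = 0.052 and 0.60).

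Of 12 regulators of mRNA decay, 3 rose and 5 fell (1 and 4 after the correction). CNOT6, a deadenylase, was at 13.0, 12.4 and 12.1 FPKM in 2DG, against 18.5, 18 and 17.7 FPKM in Phen (log2 fold change -0.53, adjusted p = 0.00015, corrected -0.24). ZFP36L1, which recruits deadenylases to AU-rich mRNAs, had 0.26 as deposited (adjusted p = 0.00033) and -0.48 after the correction (adjusted p = 0.036), on opposite sides of 0. Cytosolic ribosomal protein genes were mostly higher, with 50 of 78 tested that rose and 11 that fell (56 and 3 after the correction) and a median of 0.26. As deposited 64.1% rose, beside 31.6% of all tested genes, and after the correction 71.8%, beside 23.8%. Of 11 tested small nucleolar RNA host genes 6 rose and 5 did not pass (2 and 9 after the correction), with a median of 0.38.

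Some called genes belong to no list, of which SLC16A6 and KLF11 were chosen after their values were seen. SLC16A6, a monocarboxylate transporter, was at 15.5, 15.2 and 14.9 FPKM in 2DG, against 4.84, 4.72 and 4.82 FPKM in Phen and 4.52, 5.09 and 4.61 FPKM in DMSO (log2 fold change 1.64, adjusted p = 7.0e-11, corrected 1.91). KLF11, related to KLF10, was at 5.65, 5.71 and 5.34 FPKM in 2DG, against 2.48, 2.26 and 2.04 FPKM in Phen (log2 fold change 1.27, adjusted p = 1.7e-08, corrected 1.35). THOC6, an mRNA export subunit and 1 of the 10 largest rises, had 1.89 (adjusted p = 8.7e-05, corrected 1.07) and missed the Bonferroni threshold with any 1 of the 6 libraries left out (1.78 to 2.00, adjusted p = 0.00027 to 0.00082). LIF, PLK3, PCIF1 and SLC25A29, called higher with all libraries, were likewise not called with any 1 of the 6 left out.

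The label of the cells was checked against marker genes. VIM, the mesenchymal intermediate filament, was at 961 to 974 FPKM in 2DG and 825 to 839 FPKM in Phen, and CD44, the hyaluronan receptor, at 310 to 324 FPKM in 2DG and 365 to 371 FPKM in Phen, while NES and CHI3L1, also on this list of 9, were under the filter. MGMT, a DNA repair gene, was at 1.06 to 1.47 FPKM in 2DG and 0.488 to 0.657 FPKM in Phen (log2 fold change 1.03, adjusted p = 0.0011, corrected 0.59), and S100A6 had 0.53 as deposited but -0.27 after the correction. Of 17 markers of blood, epithelial, endothelial, neural and liver cells, 15 were under the filter, and their summed level was 0.118 to 0.144 FPKM in 2DG and 0.0956 to 0.195 FPKM in Phen. ALB, CD3E, HBB, CDH5, KRT5 and RBFOX3 were among those listed at 0 in all 6 libraries. CD68, which macrophages share with the lysosomes of other cells, rose to 20.5 to 26.0 FPKM in 2DG, against 9.05 to 11.2 FPKM in Phen (log2 fold change 1.18, adjusted p = 0.0011, corrected 0.71), and SNAP25 had -0.25 (95% interval -0.60 to 0.09, adjusted p = 0.18). Of 15 housekeeping genes 8 rose, 4 fell and 3 did not pass (8, 3 and 4 after the correction). GAPDH was at 1280 to 1581 FPKM in 2DG and 711 to 846 FPKM in Phen (log2 fold change 0.91, adjusted p = 0.0022, corrected 0.27), SDHA had 0.58 (corrected 0.56), GUSB 0.31 (corrected -0.01) and TBP -0.34 (corrected -0.24), and all 4 passed the test as deposited.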

How the data were processed

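Polyadenylated RNA of T98G cells was sequenced as paired-end, strand-specific libraries (TruSeq Stranded mRNA, NextSeq 500). Per the methods, the authors mapped the reads against Ensembl release 89 gene models on GRCh38 in CLC Genomics Workbench 11 and deposited FPKM per gene for 18 libraries in 6 groups of 3. No count test was used, since the deposited unit is FPKM, although the values of all 25158 genes above 0 came out as whole fragments within 0.001, which gave the depths, the intervals and the check for repeated libraries. Intervals on fragments cover counting error only.

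Genes with at least 0.5 FPKM in 3 libraries (12108) entered limma (version 3.58.1, R 4.3.3) with a mean-variance trend, on log2(FPKM + 0.1), with all 18 libraries in 1 model of 6 group means (12 residual degrees of freedom). Fold changes are on that scale, which understates the change of low genes. "Rose" and "fell" mean a Benjamini-Hochberg adjusted p under 0.05, and "called" means the thresholds of the study (2-fold, Bonferroni 0.05, mean of 1 FPKM in the higher group). The correction fitted natural splines in each library on GC content (5 degrees of freedom) and log2 exon length (3) over 12022 genes (99.3%), and centred each library on its median gene. GC content came from GENCODE transcripts. Exon length came from the steps of the deposited values, scaled by single-exon GENCODE genes. The centring was added after the data were seen. Named genes were the markers and genes in the text of the study, MYC, the 10 largest rises and falls among called genes without overlap, and up to 4 genes of each of 29 lists with the smallest adjusted p. These members and lists were chosen with earlier results of these data known. Group values were compared with exact permutation tests (scipy 1.17.1). The procedure was also run on simulated counts that held no trend on GC content, so that run does not bear on the trend seen here. Alternatives changed the pseudocount, filter, scaling, samples in the model, replicate block and left-out libraries.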

Additional observations from a re-analysis of the deposited data

How the results depend on the processing

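Of the 125 named genes, 91 kept their direction and their side of the threshold under every alternative, 15 lost or gained the threshold and 19 reversed. The counts moved more, and the cause was not tested. Genes called higher numbered 31, against 92 with only the 6 libraries in the model, 320 without DMSO C and GH with phenformin A, 199 with the replicate letter as a block and 74 with that block and the GC and length correction. Genes called lower numbered 16, against 6 with a pseudocount of 1, 10 with only the 6 libraries, 9 with median-of-ratios scaling, 33 with quantile normalization, and 10 and 9 with the GC and length correction without and with centring. Genes that fell numbered 4272, against 1375 with the correction, 1481 with the block and the correction and 2715 with the centred correction. Without centring, the correction moved the median of all genes to 0.11, against -0.05, and raised the share of changed genes that rose to 76.4%, from 47.2%; quantile normalization lowered it to 38.7%. With 1 of the 6 libraries left out, 3210 to 3688 genes rose, 3560 to 4214 fell, 24 to 28 were called higher and 9 to 16 called lower, the fewest without 2DG C (9) and Phen A (10).

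Whether the letters A, B and C pair the libraries was not tested. Deviations of same-lettered 2DG and Phen libraries correlated by 0.23, 0.02 and 0.13 across genes, which are not independent replicates. For libraries of different letters the correlations ran from -0.24 (2DG A with Phen C) to 0.15 (2DG B with Phen C), a range that overlaps the same-lettered values. Under the block 3996 genes rose and 4516 fell.

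The following log2 fold changes reversed. Without 2DG B, HSPA6 had 0.0033, and with quantile normalization MT-ND4L had -0.23. With the uncentred correction, with and without the block, LDHA had 0.11, NDUFA6 0.01, NDUFS1 0.12, MT-RNR2 0.12, SCD 0.041, TRA2A 0.035, SLC30A5 0.023, ZFP36L1 -0.37, CNOT1 0.051, AZIN1 0.12, CD44 0.067, S100A6 -0.16 and SNAP25 0.12. With the centred correction, IER2 had -0.085, NDUFS6 -0.11, NDUFS1 0.0094, MT-RNR2 0.013, BAK1 -0.057, ZFP36L1 -0.48, AZIN1 0.011, GUSB -0.012, S100A6 -0.27 and SNAP25 0.015. Depth limits CHAC1 in Phen, with 5 fragments in 3 libraries, AC012181.2 in Phen, with 10, and HSPA6, with 24 fragments in 2DG and 26 in Phen. GDF15 held 39 fragments and ARRDC1 54 in Phen.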
